A study of Mus musculus with 16 samples.

Results

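The response of mouse dorsal root ganglia to a crush of the sciatic nerve is described here at 72 h after the injury, from 8 of the 16 RNA sequencing libraries of the study. The 4 injured libraries come from the ganglia that correspond to the crushed nerve and the 4 naive libraries from ganglia labelled naive, both taken 72 h after surgery. Per the labels, each sample is dissociated L4 to L6 ganglia, with Percoll in its description, from which total RNA went into TruSeq libraries. The series' design took injured and naive ganglia from each of 4 mice per time, and a second set of 8 libraries stands at 24 h. Strain, age, sex and genotype of the mice are not given in the sources used here, and no allele or agent is named beyond the crush. The 72 h columns of the count table carry no time in their names. They were assigned to 72 h because the other 8 columns name 24 h. The labels number the libraries of each group 1 to 4 but do not tie the numbers to animals, so the groups were compared unpaired. The p-values rest on the spread between libraries within groups, estimated in 1 fit of all 16 libraries, and use no pairing by mouse.

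Dorsal root ganglia hold the cell bodies of the sensory neurons whose axons run in the sciatic nerve, wrapped by satellite glia and accompanied by Schwann cells, macrophages, vessels and connective tissue. When the axon is crushed, the cell body switches from transmission towards regrowth: injury-induced transcription factors such as Atf3, Jun and Sox11 are switched on, cytoskeletal and growth-cone proteins are made, and many channels, receptors and transmitter genes of the mature neuron are turned down. Resident macrophages of the ganglion are known to respond as well.

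Gene counts summed to between 38530738 and 49717456 per injured library and between 38358039 and 54980782 per naive library. Levels are given as CPM, counts per library size with TMM factors, and changes as log2 fold changes of injured over naive with a standard error (SE). No molecular identifiers are named for these libraries, so reads are not counted here as independent molecules. The label of the tissue held: all 20 pan-neuronal genes were detected in each group, with a summed level of 17000 to 17800 CPM in the injured and 15200 to 16300 CPM in the naive group. The label of the injury held as well, since Atf3, a transcription factor switched on in axotomised neurons, was at 556, 699.7, 642 and 618 CPM in the injured libraries, against 115, 101, 107 and 117 CPM in the naive libraries. The injured Atf3 values all lay above the naive ones, with a log2 change of 2.52 (SE 0.093, adjusted p = 2.75e-15). In a principal component analysis of the 8 libraries, the first component (44% of the variance) separated injured from naive libraries. The second (13.2%) separated libraries 1 and 2 from libraries 3 and 4 in both groups, although the descriptions carry 1 date throughout and no batch is labelled. Summed macrophage, neutrophil and erythroid markers were higher in libraries 3 and 4 of both groups, and their values are given below with the non-neuronal cells. Fibroblast and proprioceptor sums were higher there as well, and peptidergic nociceptor, neuropeptide precursor and satellite glia sums were lower there. T, B and NK cell sums did not follow the split in the injured group. Bulk RNA cannot tell fewer cells of a type from less RNA per cell.

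Of 19151 genes tested with edgeR's quasi-likelihood test, 5332 (27.8%) passed an adjusted p of 0.05 (Benjamini-Hochberg) at 72 h. Injured ganglia were higher for 2755 genes (14.4%) and lower for 2577 (13.5%). In 5997 genes (31.3%) the injured and naive libraries did not overlap at all, and 2526 of the genes called higher and 2275 of those called lower were among these. The rises and falls were near equal in number and in median size, but the largest changes were rises. Of the rises, 651 reached at least 1 on the log2 scale and 107 at least 4. Of the falls, 164 reached 1, 14 lay between 2 and 4, and 0 went beyond 4. Most changes of either kind were shallow. Of the 2755 rises, 458 lay under 0.25, 1053 between 0.25 and 0.5 and 593 between 0.5 and 1. Of the 2577 falls, 412, 1136 and 865 lay in the same classes. The 651 larger rises had a median log2 CPM of 1.25 and the 164 larger falls of 0.75. All rises and all falls had 5.12 and 5.06. The median rise was 0.45 and the median fall −0.43, against a median of −0.007 over all genes tested.

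**Figure D1:**
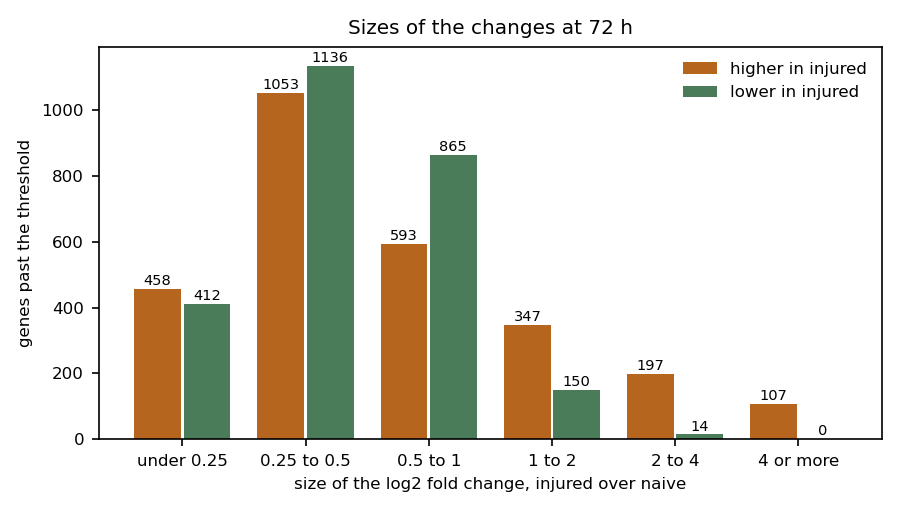
Number of genes past the threshold at 72 h by the size of their log2 fold change, injured over naive, with rises and falls side by side. Rises reach every size class, including 107 at 4 or more, where no fall lies. The classes under 1 hold 458, 1053 and 593 of the 2755 rises and 412, 1136 and 865 of the 2577 falls.

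The genes that rose held 304130 ± 8484 CPM in injured and 222969 ± 4042 CPM in naive libraries (mean of summed CPM ± SD, n = 4 each). The genes that fell held 215178 ± 3627 CPM in injured and 276736 ± 5174 CPM in naive libraries. The 651 larger rises held 29288 ± 1805 CPM in injured and 9500 ± 136 CPM in naive libraries. Genes that fell spanned a median of 37606 bp in the genome, against 21978 bp for genes that rose and 18551 bp for all genes tested. These sets were not matched: 95.2%, 89.1% and 79.7% of them were protein-coding in the same order. Their median log2 CPM was 5.06, 5.12 and 3.38. Both kinds of change were called more often among well expressed genes: of the best expressed 20% of genes, 28.0% were called higher and 24.2% lower, and of the least expressed 20%, 5.85% and 0.757%. The balance of rises and falls depends on the scaling. Scaled by the summed counts of the 20 pan-neuronal genes, the median of all genes shifted to −0.137, with 1634 genes higher and 4192 lower. Tubb3, a neuronal tubulin that itself rose, was 31.2% of that sum in injured and 22.2% in naive libraries. Scaled by the other pan-neuronal genes the median was 0.040, with 3189 higher and 1962 lower, and scaled by library totals 2472 were higher and 2911 lower. Changes no larger than these shifts have no fixed zero here.

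Neuropeptide genes were among the 12 largest rises of genes whose log2 CPM averaged 2 or more and whose groups did not overlap. Less expressed genes with larger fitted folds stand with their lists. Npy, the precursor of neuropeptide Y (ENSMUSG00000029819, chromosome 6, 49822710 to 49829507, GRCm38), had 96.4, 133, 115 and 135 CPM in the injured libraries, against 1.12, 0.341, 0.382 and 1.18 CPM in the naive libraries. The lowest injured library was far above the highest naive one. The fitted log2 change was 7.27 (SE 0.37, adjusted p = 4.64e-13). Gal, the precursor of galanin (ENSMUSG00000024907, chromosome 19, 3409915 to 3414544), had 96.2, 120.1, 102 and 98.8 CPM in the injured libraries, against 6.43, 5.72, 5.9 and 5.65 CPM in the naive libraries, without overlap and with tight groups, a log2 change of 4.14 (SE 0.197, adjusted p = 1.41e-13). Nts, the precursor of neurotensin (ENSMUSG00000019890, chromosome 10, 102481756 to 102490486), had 161, 185, 163 and 151 CPM in the injured libraries, against 6.08, 6.76, 5.14 and 5.52 CPM in the naive libraries. Its injured libraries lay close together and all above the naive ones, with a log2 change of 4.81 (SE 0.15, adjusted p = 1.84e-16).

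These 3 peptide genes rose together, and their promoters are shown for that reason. Each runs 5′ to 3′ on the gene's strand, covers 250 bases before to 50 bases after the annotated start, and is taken from RefSeq on GRCm38.p6. Capitals mark matches to the AP-1 letters TGANTCA, bound by Jun and Fos family factors and by Atf3 with partners, or to the CRE letters TGACGTCA, bound by the Creb and Atf families. Both motifs read the same on either strand.
Npy, chr6:49822460-49822759, plus strand: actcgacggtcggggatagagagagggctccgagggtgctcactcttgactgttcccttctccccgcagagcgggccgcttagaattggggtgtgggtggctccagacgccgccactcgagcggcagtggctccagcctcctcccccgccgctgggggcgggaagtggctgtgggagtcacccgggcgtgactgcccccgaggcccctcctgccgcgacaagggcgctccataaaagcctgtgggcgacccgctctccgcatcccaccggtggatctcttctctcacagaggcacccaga
Nts, chr10:102490369-102490668, minus strand: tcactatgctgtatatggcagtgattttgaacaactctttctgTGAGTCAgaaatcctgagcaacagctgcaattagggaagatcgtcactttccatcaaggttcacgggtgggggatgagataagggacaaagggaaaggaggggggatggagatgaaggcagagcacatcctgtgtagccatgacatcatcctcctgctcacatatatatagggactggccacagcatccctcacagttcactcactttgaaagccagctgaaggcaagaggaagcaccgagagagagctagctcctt
Gal, chr19:3414495-3414794, minus strand: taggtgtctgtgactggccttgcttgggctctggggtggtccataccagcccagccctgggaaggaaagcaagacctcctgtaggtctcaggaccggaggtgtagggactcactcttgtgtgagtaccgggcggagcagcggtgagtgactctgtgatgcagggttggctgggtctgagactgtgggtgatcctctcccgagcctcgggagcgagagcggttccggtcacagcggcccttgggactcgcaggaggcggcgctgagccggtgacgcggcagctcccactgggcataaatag
The Nts window holds 1 AP-1 match, and the Gal and Npy windows hold neither set of letters, which says only that these letters are not in these windows. Of all 32851 promoters of this length in the table, 7.81% hold the AP-1 letters and 1.79% the CRE letters. Counted by gene, as in the shares that follow, these were 8.97% and 2.03% of 27025 genes. Among the genes tested here that matched a promoter, 15.1% of the 430 that rose by at least 1 held the AP-1 letters, against 8.37% of the 1959 that rose at all, 5.98% of the 1958 that fell and 6.66% of all 12665. For the CRE letters the shares were 2.33%, 3.37%, 2.96% and 3.31% in the same order. The sets were not matched for expression level, and a match is a run of letters and not a measured binding site.

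Others of these 12 had varied roles. Car3, a carbonic anhydrase (ENSMUSG00000027559, chromosome 3, 14863512 to 14872523), had 89.6, 124, 112 and 102 CPM in the injured libraries, against 2.82, 1.54, 2.75 and 2.53 CPM in the naive libraries, a log2 change of 5.48 (SE 0.17, adjusted p = 1.84e-16) without overlap. Fst, follistatin, which binds activins, had 54.1, 80.03, 64.8 and 72.8 CPM in the injured libraries, against 1.93, 1.86, 2.24 and 2.51 CPM in the naive libraries. It rose by 4.99 (SE 0.205). Star, which moves cholesterol into mitochondria, had 44.9, 55.3, 49.2 and 51.6 CPM in the injured libraries, against 1.35, 1.81, 1.48 and 2.55 CPM in the naive libraries. It rose by 4.78 (SE 0.18). The injured libraries of all 3 genes lay well apart from the naive ones. Gpr151, an orphan G protein-coupled receptor, rose by 6.21 (SE 0.25), with 88.9 ± 9.3 CPM in injured and 1.18 ± 0.452 CPM in naive libraries (mean ± SD, n = 4 each, as in all such pairs). Lmo7, a LIM and PDZ domain protein of cell junctions, rose by 4.36 (SE 0.204), the actin cross-linker Flnc by 3.64 (SE 0.18) and Sez6l, a membrane protein of neurons, by 3.54 (SE 0.19).

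**Figure D2:**
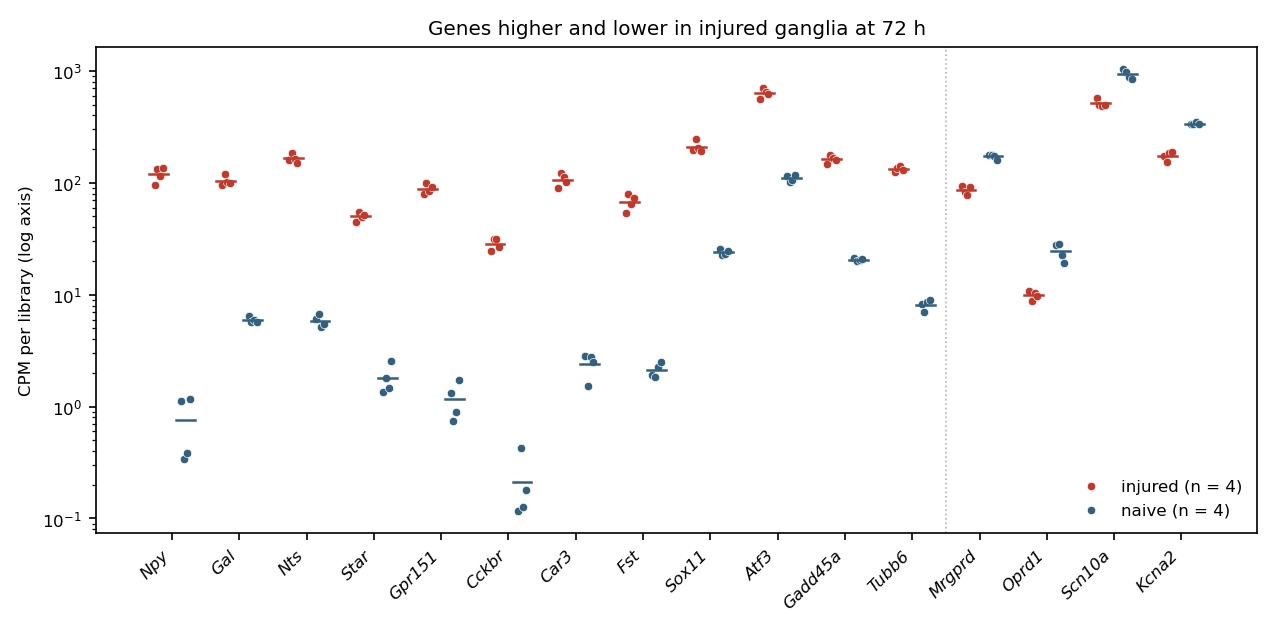
CPM of 16 genes in each of the 8 libraries at 72 h on a log axis, injured libraries left of naive ones, with a line at each mean. The 12 genes left of the dotted line are higher and the 4 genes right of it lower in injured libraries, and in each of the 16 the groups do not overlap.

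Injury-induced transcription factors rose more often than they fell. Of 31 tested, 15 rose (48.4%) and 3 fell (9.68%), with a median of 0.28. Sox11, a factor of embryonic neurons, had 196, 244, 204 and 194 CPM in the injured libraries, against 25.4, 22.9, 23.2 and 24.5 CPM in the naive libraries. It rose by 3.13 (SE 0.091). The injured libraries were all far above the naive ones, with library 2 highest. Klf6, a zinc finger factor linked to axon growth, rose by 1.09 (SE 0.058), and Jun, the AP-1 factor, by 0.598 (SE 0.087), with 455 ± 32.3 CPM in injured and 301 ± 20.3 CPM in naive libraries (Jun was chosen after its values were seen). The 3 that fell were immediate-early genes: Fosb (−0.49, SE 0.11), Fos (−0.24, SE 0.082) and Egr1 (−0.39, SE 0.13). Fos lost its call without injured 2 or naive 1 (adjusted p = 0.088 to 0.129), and Egr1 without injured 2, injured 4, naive 1 or naive 3 (adjusted p = 0.0881 to 0.0971). Without injured 2 or naive 1 a single factor of the list fell. Scaled by the pan-neuronal genes without Tubb3, Fos and Egr1 also lost their calls, and 1 factor of the list fell.

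Of 45 growth-cone and cytoskeletal genes, 27 rose (60.0%, beside 14.4% of all genes) and 5 fell, with a median of 0.37. The number that fell was 3 without injured 1, injured 2, naive 1 or naive 3. Gap43, a growth-cone membrane protein, had 578, 645, 586 and 562 CPM in the injured libraries, against 238, 226, 186 and 201 CPM in the naive libraries, a rise of 1.48 (SE 0.092) without overlap (Gap43 and Ecel1 were named after their values were seen). Tubb6, a beta-tubulin, rose by 4.03 (SE 0.16) and Stmn4, a microtubule-destabilising stathmin, by 2.91 (SE 0.14). Ecel1, a membrane endopeptidase of injured neurons, rose by 6.52 (SE 0.43), with 33.5 ± 3.94 CPM in injured and 0.365 ± 0.208 CPM in naive libraries. By the difference in mean CPM, which also depends on transcript length, 4 of the 6 largest gains of genes without overlap were in this group. Tubb3 had 5267, 5297, 5664 and 5260 CPM in the injured libraries, against 3914, 3340, 3234 and 3514 CPM in the naive libraries, a rise of 0.62 (SE 0.079), with injured library 3 highest. Tuba1a, the alpha-tubulin of growing neurons, rose by 0.58 (SE 0.075), with 5669 ± 173 CPM in injured and 3801 ± 239.8 CPM in naive libraries. Tubb2a rose by 0.86 (SE 0.077) and the stathmin Stmn2 by 0.89 (SE 0.059), with 2316 ± 229 CPM in injured and 1250 ± 31.3 CPM in naive libraries. Rtn4, the reticulon gene that encodes Nogo, was another of the 6 and rose by 0.79 (SE 0.047), with 2946 ± 167 CPM in injured and 1703 ± 72.1 CPM in naive libraries. Tuba1a shares 26.2% of its exon length with another gene model, and alpha-tubulin genes are near copies of each other, so the split of reads among them is uncertain. Mapt, tau, which stabilises axonal microtubules, fell (log2 fold change −0.25, SE 0.063). The neurofilament gene Nefh fell (log2 fold change −0.25, SE 0.091). Its call was lost without injured 1, injured 2, naive 1, naive 2, naive 3 or naive 4 (adjusted p = 0.0577 to 0.147). It was also lost by DESeq2 (adjusted p = 0.108), with a filter of at least 1 CPM in 4 libraries and when scaled by pan-neuronal genes without Tubb3.

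Neuropeptide genes moved in both directions. Of 20 precursors tested, 9 rose and 4 fell, with a median of 1.18. Beside Npy, Gal and Nts, Crh, corticotropin-releasing hormone, had 164, 358, 198 and 305 reads in the injured libraries, against 2, 3, 1 and 0 reads in the naive libraries (Crh was named after its values were seen). Its fitted log2 fold change of 7.35 (SE 0.72) depends on the prior count at so few naive reads. Adcyap1, the precursor of PACAP, rose by 1.33 (SE 0.103) and Penk, the precursor of enkephalins, by 1.61 (SE 0.25). Other precursors fell. Tac1, the precursor of substance P, had 156, 124, 112 and 128 CPM in the injured libraries, against 213, 213, 172 and 201 CPM in the naive libraries. The log2 fold change was −0.62 (SE 0.090), with every injured library below every naive one. Calca, which encodes a calcitonin gene-related peptide, fell (log2 fold change −0.34, SE 0.079) and its relative Calcb (−0.38, SE 0.088). Nmb, neuromedin B, fell (log2 fold change −0.75, SE 0.099), with 20.6% of its exon length shared with another gene.

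Secreted factors and cell death genes moved in both directions. Of 50 growth factors and cytokines, 15 rose and 11 fell. Csf1, on which macrophages depend for survival, had 134, 156, 132 and 116 CPM in the injured libraries, against 19.99, 19.6, 19.5 and 17.2 CPM in the naive libraries, a rise of 2.82 (SE 0.14) without overlap. Fgf3, a fibroblast growth factor, had 400, 592, 321 and 459 reads in the injured libraries, against 0, 0, 1 and 5 reads in the naive libraries. It was at or near 0 in naive libraries, so its fitted log2 fold change of 8.18 is no bound. Vegfa, the vascular growth factor, fell (log2 fold change −0.62, SE 0.073). Of 49 cell death and survival genes, 19 rose and 9 fell. Gadd45a, a stress-induced growth arrest gene with 19.1% of its exon length shared, rose by 2.97 (SE 0.103), the cell cycle inhibitor Cdkn1a by 2.49 (SE 0.13) and the glutathione-degrading enzyme Chac1 by 2.02 (SE 0.13), while Bcl2, which holds back apoptosis, fell (log2 fold change −0.61, SE 0.066).

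Receptors fell more often than they rose in 7 of the 9 receptor lists. Among tyrosine kinase and neurotrophic receptors, 17 of 41 fell (41.5%) and 5 rose, with a median of −0.23. The GDNF family co-receptors split. Gfra1, which binds GDNF, had 491, 611, 558 and 576 CPM in the injured libraries, against 163, 169, 153 and 147 CPM in the naive libraries. It rose by 1.82 (SE 0.083). Gfra3, which binds artemin, rose by 0.76 (SE 0.097) and the shared signalling receptor Ret by 0.41 (SE 0.055). Gfra2, which binds neurturin, had 78.9, 57.4, 53.5 and 62.6 CPM in the injured libraries, against 119, 129, 112 and 99.5 CPM in the naive libraries. Its log2 fold change was −0.86 (SE 0.1004). Egfr, the receptor of epidermal growth factor, rose by 2.001 (SE 0.301). In Gfra1 and Gfra2 the injured and naive libraries did not overlap.

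Cytokine and TGF-beta family receptors rose more often than they fell, with 17 of 49 higher (34.7%) and 7 lower. Acvr1, a type I receptor of activins and BMPs, had 54.3, 69.7, 59 and 58.1 CPM in the injured libraries, against 12.6, 12.7, 11.9 and 12.8 CPM in the naive libraries, a rise of 2.27 (SE 0.12) without overlap. Acvr1c, another type I receptor of the family, rose by 5.26 (SE 0.29), with 454, 626, 506 and 512 reads in the injured libraries, against 14, 11, 20 and 12 reads in the naive libraries. Il13ra1, a receptor chain for IL-13 and IL-4, rose by 1.83 (SE 0.089). Cntfr, the ciliary neurotrophic factor receptor, fell (log2 fold change −0.55, SE 0.12). Csf1r and Cx3cr1, which are macrophage genes, are also on this list.

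Among G protein-coupled receptors, the peptide receptors were balanced, with 11 of 44 higher and 10 lower, or 9 higher and 14 lower when scaled by pan-neuronal counts and 10 higher and 14 lower with the replicate block. Both cholecystokinin receptors rose. Cckbr had 942, 1519, 1209 and 1280 reads in the injured libraries, against 5, 20, 5 and 10 reads in the naive libraries, and Cckar had 92.7, 103, 117 and 102 CPM in the injured libraries, against 29.6, 28.8, 33.5 and 31.9 CPM in the naive libraries. Their log2 fold changes were 7.03 (SE 0.36) and 1.75 (SE 0.086). Of the 4 opioid receptor genes, 3 fell. Oprd1, the delta receptor, had 10.9, 8.82, 10.4 and 9.68 CPM in the injured libraries, against 27.6, 28.5, 22.6 and 19.3 CPM in the naive libraries. Its change was −1.302 on the log2 scale (SE 0.12). The mu receptor Oprm1 fell (log2 fold change −0.62, SE 0.14) and the nociceptin receptor Oprl1 (−0.76, SE 0.105), and the kappa receptor Oprk1, at −0.71 (adjusted p = 0.0731), did not pass. No injured library reached the lowest naive level of Oprd1. Of 28 amine and acetylcholine receptors, 8 fell, among them the alpha-2 adrenergic receptor Adra2c (−0.97, SE 0.087) and the serotonin receptor Htr4 (−0.999, SE 0.14). The 2 that rose were the muscarinic receptor Chrm3, by 1.13 (SE 0.25), and the serotonin receptor Htr1f, by 1.101 (SE 0.12). Of 35 lipid, nucleotide and protease receptors, 14 fell and 2 rose. Lpar3, a lysophosphatidic acid receptor of nociceptors, fell (log2 fold change −0.65, SE 0.11). P2ry14, a receptor of UDP-sugars, had 67, 148, 152 and 80 reads in the injured libraries, against 19, 36, 43 and 67 reads in the naive libraries. It rose by 1.56 (SE 0.33). Of 46 itch and orphan receptors, 8 rose and 13 fell. Gpr85 rose by 0.93 (SE 0.078). Mrgprd, which marks a large class of skin nociceptors, had 93.1, 82.1, 78.1 and 91.5 CPM in the injured libraries, against 179, 177, 172 and 161 CPM in the naive libraries. It fell (log2 fold change −0.9998, SE 0.091). Its injured values all lay below its naive ones, and Mrgprx1, an itch receptor, fell (log2 fold change −1.21, SE 0.16).

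Transmitter-gated channels changed in both directions, subunit by subunit. Of 19 GABA and glycine receptor genes, 3 rose and 6 fell. Gabrg1 had 132, 184, 160.1 and 169.7 CPM in the injured libraries, against 46.2, 45.2, 49.8 and 54.4 CPM in the naive libraries. It rose by 1.72 (SE 0.088), Gabra5 rose by 1.83 (SE 0.16) and Gabrb1 by 1.26 (SE 0.17). The Gabrg1 values of the groups did not overlap. Of 23 glutamate receptor genes, 10 fell, among them the kainate subunit Grik1 (−0.71, SE 0.086), the NMDA subunit Grin1 (−0.68, SE 0.083) and the AMPA subunit Gria2 (−0.62, SE 0.082), and 2 rose. Among 19 nicotinic, serotonin and ATP-gated channel genes, 4 rose and 8 fell. Chrna5 rose by 3.42 (SE 0.49) and Chrnb1, a subunit of muscle nicotinic receptors, by 1.44 (SE 0.34). Htr3a, a subunit of the serotonin-gated channel, had 132, 98.3, 107 and 123 CPM in the injured libraries, against 259, 237, 205 and 232 CPM in the naive libraries. The log2 fold change was −1.02 (SE 0.082) without overlap. Its partner Htr3b fell (log2 fold change −1.23, SE 0.14). P2rx3, the ATP-gated channel of nociceptors, rose by 0.25 (SE 0.064), and did not pass when scaled by pan-neuronal counts, where the list had 2 higher and 9 lower.

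**Figure D3:**
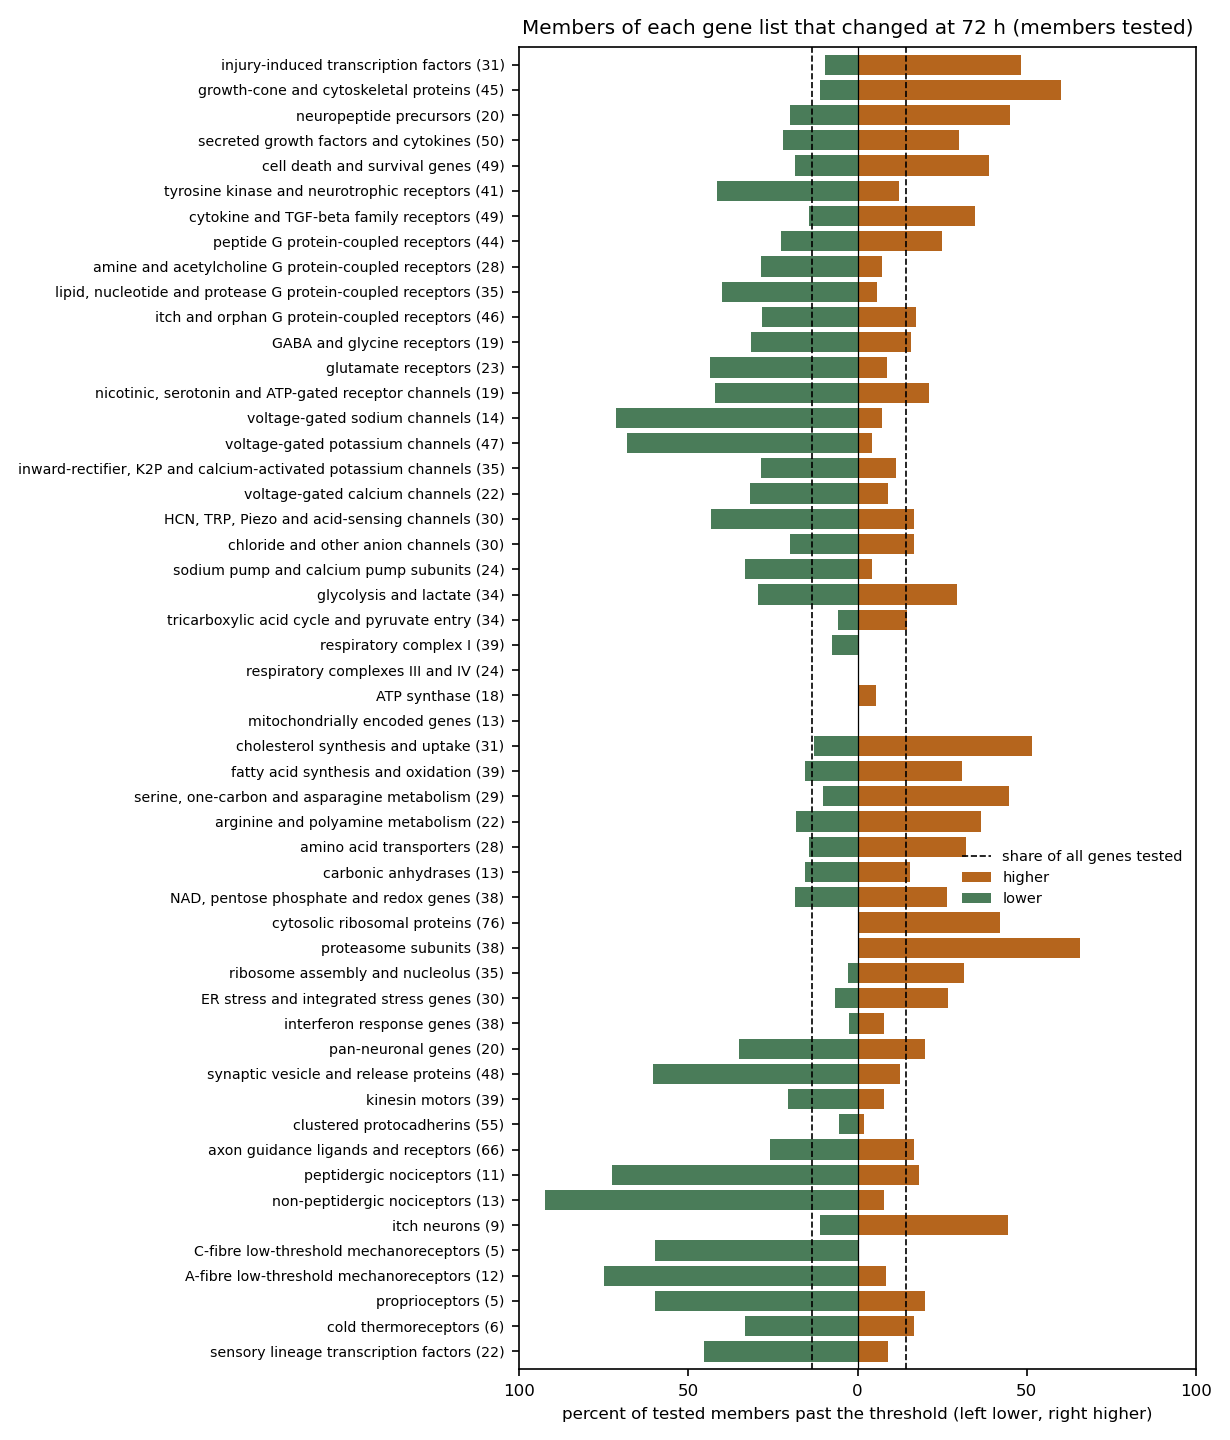
Percent of the tested members of each gene list that were lower (left) or higher (right) in injured libraries at 72 h, with the number tested in brackets. Dashed lines mark 13.5% lower and 14.4% higher, the shares over all 19151 genes tested, and nociceptor, sodium channel and potassium channel lists reach far left (71.4% for sodium channels) while proteasome and growth-cone genes reach far right (65.8% and 60.0%).

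Voltage-gated sodium and potassium channels fell broadly. Of 14 sodium channel genes, 10 fell (71.4%) and 1 rose, with a median of −0.49. Scn10a, the Nav1.8 channel of nociceptors, had 577, 501, 489 and 499.9 CPM in the injured libraries, against 1038, 983, 886 and 839 CPM in the naive libraries. All injured libraries were below all naive ones, a log2 change of −0.86 (SE 0.069, adjusted p = 1.43e-09). Scn11a, the Nav1.9 channel, fell (log2 fold change −0.74, SE 0.084) and the auxiliary subunit Scn4b (−0.596, SE 0.046). Scn3a, a channel of developing neurons, was the 1 sodium channel gene that rose, with 10.5, 10.5, 10.9 and 15 CPM in the injured libraries, against 6.9, 8.08, 6.87 and 6.45 CPM in the naive libraries. The change was 0.73 (SE 0.14), without overlap and with the highest injured value in library 4.

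Of 47 voltage-gated potassium channel genes and their auxiliary subunits, 32 fell (68.1%) and 2 rose, with a median of −0.53. Members of the Kv1 to Kv4 and Kv7 subfamilies, of the ERG and EAG channels, of the silent subunits and of the Kcnip and Kcnab auxiliary subunits were all among the falls. Kcna2, the Kv1.2 channel of axons, had 175, 154, 183 and 187 CPM in the injured libraries, against 332, 334, 351 and 332 CPM in the naive libraries. Its log2 fold change was −0.95 (SE 0.063, adjusted p = 4.16e-11). Kcnh7, an ERG channel, had 134, 132, 131 and 149 CPM in the injured libraries, against 252, 292, 258 and 256 CPM in the naive libraries. Its change was −0.95 on the log2 scale (SE 0.084). In both genes all injured libraries lay below all naive ones. Kcnq3, a subunit of the M channel, rose by 0.58 (SE 0.082). Scaled by pan-neuronal counts, the list had 1 higher and 33 lower. Of the 35 inward-rectifier, background and calcium-activated potassium channel genes, 10 fell and 4 rose. Kcnmb1, an auxiliary subunit of BK channels, fell (log2 fold change −1.25, SE 0.13), Kcnj11, the pore of ATP-sensitive channels (−1.18, SE 0.22) and the sodium-activated channel Kcnt1 (−0.74, SE 0.076). Kcnmb4, another BK subunit, rose by 0.71 (SE 0.12), although 31.5% of its exon length is shared with another gene. Kcnk16, a background channel, had 172, 247, 202 and 197 reads in the injured libraries, against 7, 0, 1 and 4 reads in the naive libraries. The fold change of 6.12 is fitted against 12 naive reads in all and is no bound.

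Of 22 calcium channel genes, 2 rose and 7 fell. Cacna2d1, the alpha-2-delta subunit that binds gabapentin, had 1225, 1513, 1272 and 1333 CPM in the injured libraries, against 423, 467, 403 and 382 CPM in the naive libraries. It rose by 1.67 (SE 0.064, adjusted p = 4.43e-15). Its sister subunit Cacna2d2 had 21.8, 19.5, 18.5 and 20.5 CPM in the injured libraries, against 39, 37.2, 32.8 and 34 CPM in the naive libraries. It fell (log2 fold change −0.83, SE 0.095). Neither gene overlapped between groups. Cacnb4, an intracellular beta subunit, fell (log2 fold change −0.42, SE 0.057). Of 30 HCN, TRP, Piezo and acid-sensing channel genes, 13 fell and 5 rose. Trpa1, the irritant receptor, fell (log2 fold change −0.699, SE 0.091) and the acid-sensing channel Asic3 (−0.65, SE 0.075). Mcoln2 and Mcoln3, lysosomal cation channels, were near silent in naive ganglia. Mcoln2 had 167, 330, 183 and 221 reads in the injured libraries, against 3, 5, 4 and 23 reads in the naive libraries, and Mcoln3 had 13, 14, 24 and 21 reads in the injured libraries, against 0, 0, 0 and 0 reads in the naive libraries (Mcoln3 was named after its values were seen). Every injured library was above every naive one in both genes. Trpv2 rose by 0.41 (SE 0.069). Among 30 chloride and other anion channel genes, 5 rose and 6 fell, with Ano6, a lipid scramblase, higher by 0.73 (SE 0.048) and Ano3, of the same family, below its naive level (−0.67, SE 0.068). The anion channel counts turned to 5 higher and 2 lower when scaled by the pan-neuronal genes without Tubb3. Of 24 sodium and calcium pump genes, 8 fell and 1 rose. The calcium pump Atp2b3 fell (log2 fold change −0.696, SE 0.072). Single libraries moved some of these small counts. The calcium channels that rose were 1 without injured 2, injured 3, injured 4, naive 1, naive 2 or naive 3, the pumps that rose 0 without injured 3, injured 4, naive 1 or naive 2 and the chloride channels that fell 2 without naive 2.

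**Figure D4:**
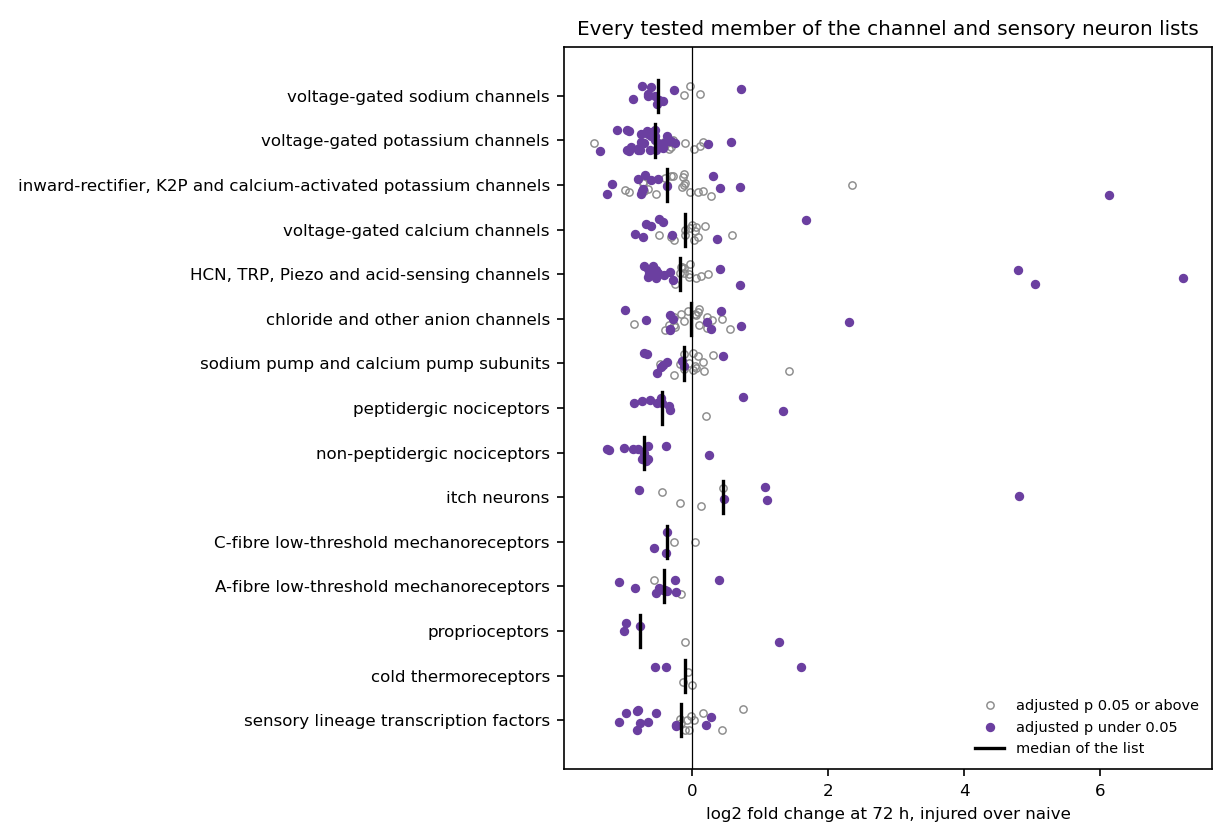
Log2 fold change at 72 h of every tested member of the channel and sensory neuron lists, 1 point a gene, filled where the adjusted p was under 0.05, with a bar at each median. Most filled points of the voltage-gated sodium and potassium channels and of the nociceptor lists lie below 0, with medians of −0.49, −0.53 and −0.71 for sodium channels, potassium channels and non-peptidergic nociceptors.

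Marker genes of most sensory neuron classes fell. Of 13 markers of non-peptidergic nociceptors, 12 fell and 1 rose, with a median of −0.71, and the riser was P2rx3. Several of these genes, such as Mrgprd, Gfra2 and Scn11a, are also on the receptor and channel lists above. Of 11 markers of peptidergic nociceptors, 8 fell and 2 rose, the risers being Adcyap1 and Gfra3. Trpv1, the capsaicin receptor, fell (log2 fold change −0.32, SE 0.080). Of 12 markers of A-fibre mechanoreceptors, 9 fell, among them Cntnap2, an organiser of axonal potassium channels (−0.42, SE 0.048) and Necab2 (−0.83, SE 0.16). Of 5 markers of C-fibre mechanoreceptors, 3 fell, among them the vesicular glutamate transporter Slc17a8 (−0.56, SE 0.14). Of 5 proprioceptor markers, 3 fell and 1 rose. Their summed level was 205 to 324 CPM in the injured and 157 to 263 CPM in the naive group. Whrn fell (log2 fold change −0.996), and Pvalb, at −0.092 (adjusted p = 0.766), did not pass. Etv1 had 27.8, 22.8, 29.6 and 35.3 CPM in the injured libraries, against 51.4, 52.5, 61.9 and 59.9 CPM in the naive libraries. The log2 fold change was −0.97 (SE 0.103), without overlap. Runx3, a factor that specifies proprioceptors, fell (log2 fold change −0.76, SE 0.28). Its call was lost without injured 1, injured 2, injured 3, naive 1, naive 3 or naive 4 (adjusted p = 0.0658 to 0.156). It was also lost with no filter, with at least 1 CPM in 4 libraries and from the 72 h libraries alone. Scaling by the pan-neuronal genes without Tubb3 lost it too. Spp1, osteopontin, rose by 1.28 (SE 0.199) (18.8% of its exon length shared with another gene). Of 6 cold thermoreceptor markers, 2 fell (1 without injured 1, injured 2, injured 3 or naive 4), and Penk was the 1 riser. The cold receptor Trpm8 fell (log2 fold change −0.54, SE 0.18). Its call was lost without injured 1, injured 2, injured 3 or naive 4 (adjusted p = 0.0557 to 0.0999) and by DESeq2 (adjusted p = 0.0565). Of 9 itch neuron markers, 4 rose, which were Nts, Htr1f, the kinase gene Jak1 and the IL-31 receptor Il31ra, and the serotonin receptor Htr1a fell (log2 fold change −0.77, SE 0.17). The others did not pass: Nppb at 0.46 (adjusted p = 0.171), Cysltr2 at 0.13 (0.675), Osmr at −0.18 (0.201) and Sst at −0.44 (0.309). The itch receptor Mrgprx1, counted here with the non-peptidergic markers, fell (log2 fold change −1.21). Il31ra had 29.9, 26.2, 25.1 and 34.1 CPM in the injured libraries, against 14.1, 13.9, 13 and 13.4 CPM in the naive libraries. It rose by 1.08 (SE 0.11). Its groups did not overlap. Of 22 transcription factors of the sensory lineage, 10 fell and 2 rose (1 without injured 2, injured 4, naive 3 or naive 4). Isl2, a LIM homeodomain factor, had 146, 122, 134 and 153 CPM in the injured libraries, against 273, 249, 222 and 229 CPM in the naive libraries. Its log2 fold change was −0.81 (SE 0.077). Prdm12, needed for nociceptors to form, fell (log2 fold change −0.81, SE 0.081). The Isl2 values of the groups did not overlap.

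Genes shared by all neurons moved in both directions. Of 20 pan-neuronal genes, 4 rose and 7 fell, with a median of −0.048, or 7 higher and 5 lower when scaled by these genes without Tubb3. Their summed level was higher in injured libraries (given above), but without Tubb3 it was 11700 to 12100 CPM in the injured and 12000 to 12400 CPM in the naive group, which overlap. Rbfox3, the NeuN antigen, fell (log2 fold change −0.602, SE 0.069) and the secretory granule protein Scg2 (−0.43, SE 0.058), while Syt4, a synaptotagmin, rose by 0.74 (SE 0.052). Of 48 synaptic vesicle and release genes, 29 fell (60.4%) and 6 rose. Rph3a, rabphilin, had 77.1, 71.8, 73.5 and 67 CPM in the injured libraries, against 146, 142, 145 and 133 CPM in the naive libraries. Its change was −0.97 on the log2 scale (SE 0.053, adjusted p = 1.57e-12), the smallest p among the genes that fell. Snap25, a core release protein, had 1660, 1732, 1831 and 1869 CPM in the injured libraries, against 2097, 2234, 2400 and 2523 CPM in the naive libraries. It fell (log2 fold change −0.38, SE 0.054). In both, the injured libraries were all below the naive ones. Rims3, of the release site, fell (log2 fold change −0.62, SE 0.064) and Syt7, a calcium sensor (−0.73, SE 0.082). Of 39 kinesin genes, 3 rose and 8 fell (5 without injured 2, injured 3 or naive 1). Kif22 rose by 2.29 (SE 0.18) and Kif5a, an axonal motor, fell (log2 fold change −0.24, SE 0.043). Of 66 guidance ligands and receptors, 11 rose and 17 fell, with Sema6a higher by 3.33 (SE 0.15). Sema7a fell (log2 fold change −0.78, SE 0.081), the netrin receptor Unc5b (−1.14, SE 0.13) and the Slit receptor Robo2 (−0.44, SE 0.053). Clustered protocadherins, whose isoforms share exons so that their reads may be split, had 1 riser (0 without injured 2, injured 4, naive 1, naive 2 or naive 4 and 2 without injured 3) and 3 fallers of 55 tested.

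Among metabolic genes, the lists of cholesterol synthesis and uptake and of fatty acid synthesis and oxidation were among several with more rises than falls. Their median log2 fold changes were 0.175 and −0.024. Of 31 cholesterol genes, 16 rose (51.6%) and 4 fell (0 without naive 1 and 2 without injured 4 or naive 2). Abca1, which exports cholesterol from cells, had 407, 518, 491 and 473 CPM in the injured libraries, against 109, 103, 98.8 and 99.3 CPM in the naive libraries. It rose by 2.204 (SE 0.087, adjusted p = 6.31e-15). Hsd17b7, a sterol synthesis enzyme, had 210.2, 277, 249 and 253 CPM in the injured libraries, against 70.5, 82.6, 74.4 and 71.6 CPM in the naive libraries. It rose by 1.73 (SE 0.086). Neither overlapped, and Insig1, a sterol sensor, rose by 0.47 (SE 0.056). Among 39 fatty acid genes, 12 rose and 6 fell, with Fads3, a desaturase family gene, higher by 1.27 (SE 0.082) and Acly, which makes cytosolic acetyl-CoA, by 0.31 (SE 0.043). Scaled by pan-neuronal counts, the cholesterol list had 9 higher and 8 lower and the fatty acid list 7 higher and 10 lower, so the direction of the fatty acid list turned with that scaling.

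Of 29 genes of serine, one-carbon and asparagine metabolism, 13 rose (44.8%) and 3 fell (1 without injured 1, injured 2, injured 3 or naive 2). Aldh1l1, a folate enzyme, had 31.2, 36.4, 29.9 and 29.5 CPM in the injured libraries, against 8.88, 9.15, 8.21 and 7.91 CPM in the naive libraries. It rose by 1.896 (SE 0.11), without overlap. The mitochondrial folate enzyme Mthfd2 rose by 1.03 (SE 0.081) and asparagine synthetase, Asns, by 0.55 (SE 0.050). Of 22 arginine and polyamine genes, 8 rose and 4 fell. Odc1, ornithine decarboxylase, which starts polyamine synthesis, had 148, 166, 157 and 159 CPM in the injured libraries, against 56.9, 60.4, 60.7 and 67 CPM in the naive libraries. It rose by 1.36 (SE 0.095). Azin1, which protects that enzyme, rose by 0.92 (SE 0.063) and the mitochondrial arginase Arg2 by 1.87 (SE 0.18) (28.1% of its exon length shared with another gene). Ass1, which leads to arginine, fell (log2 fold change −0.52, SE 0.087). In Odc1 all injured values exceeded all naive ones. Of 28 amino acid transporters, 9 rose and 4 fell. Slc1a4 rose by 1.28 (SE 0.077) and Slc38a1 by 0.69 (SE 0.080), both carriers of neutral amino acids. Of 13 carbonic anhydrases, 2 rose and 2 fell (15.4% each, near the 14.4% and 13.5% of all genes). Car3 and Car1 rose, Car1 by 3.45 (SE 0.41), and Car10 was among those that fell (−0.43, SE 0.054). Scaled by pan-neuronal counts, 2 were higher and 3 lower. Of 38 NAD, pentose phosphate and redox genes, 10 rose and 7 fell, or 7 higher and 8 lower by the same scaling, with G6pdx, the entry enzyme of the pentose phosphate pathway, higher by 0.53 (SE 0.058) and Ugdh, UDP-glucose dehydrogenase, by 0.68 (SE 0.068). Heme oxygenase Hmox1 fell (log2 fold change −0.46, SE 0.103).

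Glycolytic genes were split, and few respiratory genes passed the threshold. Of 34 glycolytic genes, 10 rose and 10 fell, or 7 higher and 14 lower when scaled by pan-neuronal counts. Pfkfb4, a regulator of glycolytic flux, rose by 1.29 (SE 0.094), and the glucose transporter Slc2a1 had 85.1, 77.7, 67.8 and 66.1 CPM in the injured libraries, against 42.8, 36.4, 33.8 and 36.6 CPM in the naive libraries. It rose by 0.99 (SE 0.103). The Slc2a1 values did not overlap, and Pfkm, a phosphofructokinase, fell (log2 fold change −0.42, SE 0.043). Of 34 genes of the tricarboxylic acid cycle, 5 rose and 2 fell. The fallers were 4 without injured 3. Of 39 complex I genes, 0 rose and 3 fell (1 without injured 1, injured 3, naive 1 or naive 4). Of 24 genes of complexes III and IV, 0 passed the threshold by edgeR and 0 by DESeq2, with 2 at an unadjusted p under 0.05. ATP synthase had 1 riser (0 without injured 1, injured 3, naive 2, naive 3 or naive 4) and 0 fallers of 18, and the 13 protein-coding genes of the mitochondrial genome had 0 calls by edgeR and 0 by DESeq2, with 4 at an unadjusted p under 0.05 (fallers were 1 without injured 1 and 3 without naive 1). With the replicate block, complexes III and IV had 2 higher and 0 lower and these mitochondrial genes 0 higher and 2 lower, and from the 72 h libraries alone 1 higher and 0 lower and 0 higher and 3 lower. Both shares of the respiratory and ATP synthase lists lay below the 14.4% higher and 13.5% lower over all genes, whereas 14.7% of the tricarboxylic acid cycle genes rose. Scaled by pan-neuronal counts, the tricarboxylic acid cycle had 1 higher and 11 lower and complex I 0 higher and 16 lower. Ndufb3 fell (log2 fold change −0.24, SE 0.077), a call lost without injured 1 or naive 4 (adjusted p = 0.0639 to 0.0881). It was also lost when scaled by the pan-neuronal genes without Tubb3, where complex I had 0 higher and 0 lower.

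Ribosomal protein and proteasome genes rose by small amounts. Of 76 cytosolic ribosomal protein genes, 32 rose (42.1%) and 0 fell, with a median of 0.21. Rps3 had 288, 293, 299 and 265 CPM in the injured libraries, against 226, 204, 213 and 225 CPM in the naive libraries. It rose by 0.399 (SE 0.057). Rpl35 rose by 0.77 (SE 0.11), but shares 66.2% of its exon length with another gene model, and many ribosomal protein genes have near-identical pseudogenes that could take reads. Of 38 proteasome subunits, 25 rose (65.8%) and 0 fell, with a median of 0.21. Psmd11, of the regulatory cap, had 61.7, 64.3, 61.9 and 59.2 CPM in the injured libraries, against 40.3, 41.4, 40.5 and 39 CPM in the naive libraries. It rose by 0.62 (SE 0.063), and Psmd8 rose by 0.61 (SE 0.052). The groups did not overlap in Rps3 or Psmd11. Scaled by pan-neuronal counts, ribosomal proteins had 10 higher and 1 lower and proteasome subunits 8 higher and 2 lower. The ribosomal protein genes that rose were 19 without naive 2 and 21 without naive 3. Of 35 ribosome assembly genes, 11 rose, Rrp12 by 0.69 (SE 0.087), and 1 fell. Those that rose were 6 without injured 2, and the list had 4 higher and 4 lower when scaled by pan-neuronal counts. Of 30 ER and integrated stress genes, 8 rose and 2 fell (0 without injured 1, injured 3 or naive 2 and 1 without naive 3), or 5 higher and 5 lower by the pan-neuronal scaling. Atf4, the factor of the integrated stress response, rose by 0.63 (SE 0.064) and Sesn2, which senses stress and nutrients, by 1.16 (SE 0.14).

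Few interferon response genes passed the threshold at 72 h. Of 38, 3 rose and 1 fell, or 1 higher and 8 lower when scaled by pan-neuronal counts. Those that fell were 0 without naive 1 and 2 without injured 4. Mx2, an antiviral GTPase, rose by 0.66 (SE 0.15), and Isg15, a ubiquitin-like protein, fell (log2 fold change −1.29, SE 0.38), a call lost without naive 1 (adjusted p = 0.0527). At 24 h, 28 genes of the list rose and 0 fell against the naive libraries of that time. The difference between the responses (72 h minus 24 h) passed the threshold as more negative in 16 and more positive in 0.

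Non-neuronal cells were followed by marker lists in these dissociated ganglia, whose description names Percoll. How much of each cell type the preparation kept was not tested. The sums describe the libraries and need not match the intact ganglion. Macrophage markers rose in 9 of 24 and fell in 0, with a median of 0.997. C1qa, the complement chain made by macrophages, had 14.7, 11.2, 19.2 and 13.8 CPM in the injured libraries, against 2.05, 3.22, 4.71 and 4.79 CPM in the naive libraries, a rise of 1.99 (SE 0.24, adjusted p = 7.69e-07). The mannose receptor Mrc1 rose by 1.22 (SE 0.21) and the fractalkine receptor Cx3cr1 by 2.172 (SE 0.402). The summed level of the macrophage list was 123, 118, 185 and 166 CPM in the injured libraries, against 64, 67, 135 and 171 CPM in the naive libraries. Libraries 1 and 2 of each group were the lower pair and libraries 3 and 4 the higher pair, and the injured sums exceeded the naive ones within libraries 1 and 2 but overlapped within libraries 3 and 4. No label marks this split, which was read from the data. None of the 24 macrophage markers was at 0 in either group. The replicate block, with a term for each library number, gave 11 markers higher and 1 lower.

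Of 15 neutrophil markers, 9 fell and 0 rose, with a median of −1.34. Ltf, a granule protein, fell (log2 fold change −1.398, SE 0.39), Ngp (−1.401, SE 0.42) and Camp (−1.34, SE 0.402). The summed level was 51, 81.7, 138 and 180.0 CPM in the injured libraries, against 127, 149, 337 and 499 CPM in the naive libraries. Libraries 3 and 4 were again the higher pair in both groups, and the groups overlapped. Within libraries 1 and 2, and within libraries 3 and 4, every injured sum was below every naive one, and the replicate block gave 12 of the 15 markers lower. The split into pairs was seen in these same sums, so the comparison within pairs is description and no separate evidence. The number that fell was 0 without naive 4 and 1 without injured 2 and 3 without injured 1 or naive 3. Of the named markers, Ltf lost its call without naive 4 (adjusted p = 0.0549), Ngp without injured 1, injured 2 or naive 4 (adjusted p = 0.0508 to 0.102) and Camp without injured 2 or naive 4 (adjusted p = 0.0508 to 0.124). Erythroid markers showed the same split, with a sum of 28.7, 34.9, 108 and 110.0 CPM in the injured libraries, against 83.4, 74.5, 189 and 223 CPM in the naive libraries, without a gap between the groups. In it 1 of 7, the anion exchanger Slc4a1, fell (log2 fold change −1.58, SE 0.56), a call lost without injured 1, injured 2, injured 3, naive 3 or naive 4 (adjusted p = 0.0573 to 0.182). The erythroid markers that fell were 0 without injured 1, injured 2, naive 3 or naive 4 and 2 without injured 3 and 3 without injured 4, naive 1 or naive 2. With the replicate block, or with a block for libraries 1 and 2 against 3 and 4 added after the data were seen, all 7 erythroid markers fell. By DESeq2, 5 of the 15 neutrophil markers and 0 of the 7 erythroid markers fell. The part of blood cells in these values was not tested.

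**Figure D5:**
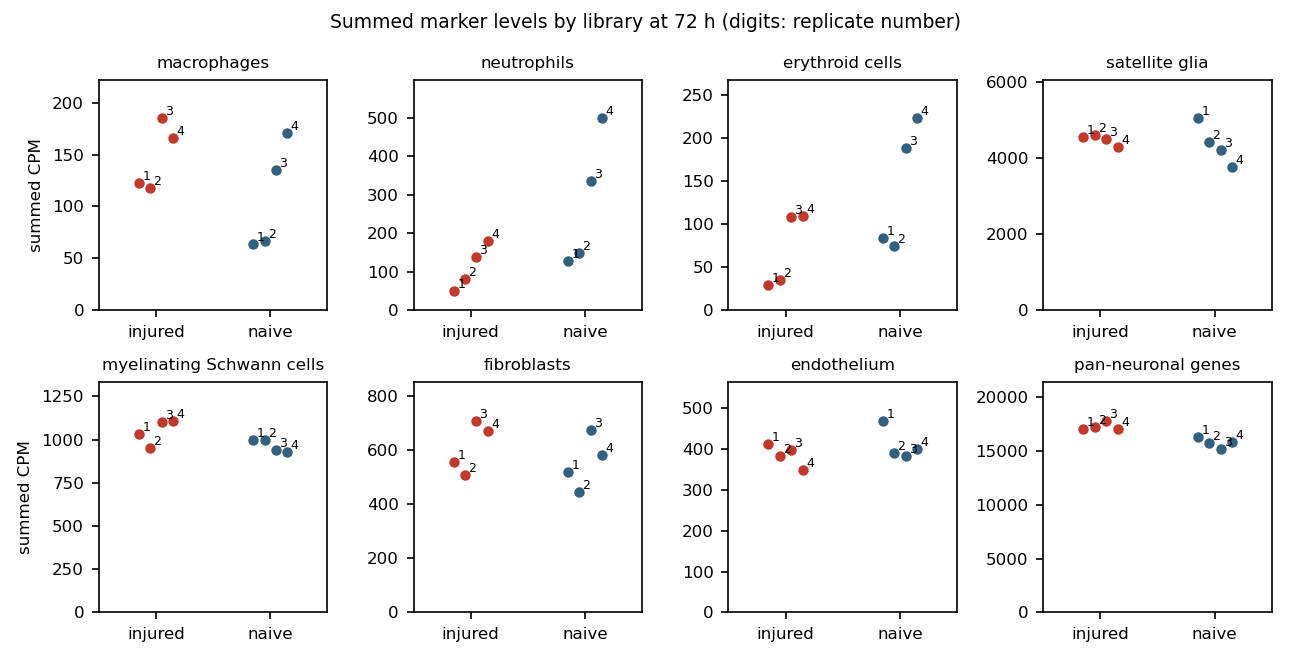
Summed CPM of 8 marker lists in each of the 8 libraries at 72 h, injured left of naive, each point numbered by replicate. Macrophage, neutrophil and erythroid sums are higher in libraries 3 and 4 than in 1 and 2 in both groups. Fibroblast sums follow the same split and satellite glia sums the reverse. Satellite glia, Schwann cell and endothelial sums overlap between the groups, and pan-neuronal sums, which include Tubb3, are higher in injured libraries without overlap.

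Of the satellite glia, myelinating Schwann cell, endothelial and mural cell markers, a smaller share passed the threshold than the 27.8% of all genes, while fibroblast markers were near that share. Of 14 satellite glia markers, 1 rose and 0 fell. The riser was Glul, glutamine synthetase, with 941, 1034, 917 and 935 CPM in the injured libraries, against 604, 573, 553 and 545 CPM in the naive libraries, a change of 0.75 (SE 0.051) without overlap. The list summed to 4300 to 4590 CPM in the injured and 3750 to 5040 CPM in the naive group, with libraries 3 and 4 the lower pair in both. It had 1 higher and 2 lower when scaled by pan-neuronal counts. Of 16 myelinating Schwann cell markers, 2 rose, Pmp22 by 0.21 (SE 0.066), a call lost without injured 4, naive 3 or naive 4 (adjusted p = 0.0512 to 0.0707) and when scaled by library totals or pan-neuronal counts. The Schwann cell markers that rose were 0 without injured 4, naive 3 or naive 4 and 1 without injured 1, injured 3 or naive 1. Of 7 repair Schwann cell markers, 2 rose (1 without injured 2, injured 3, injured 4 or naive 1) and 1 fell (0 without injured 2, naive 1 or naive 2), and their summed level was 662 to 722 CPM in the injured and 715 to 893 CPM in the naive group. Gfap, an intermediate filament of activated glia on that list, rose by 2.08 (SE 0.58) at a low level, with 27, 28, 25 and 39 reads in the injured libraries, against 5, 1, 14 and 9 reads in the naive libraries. Endothelial markers summed to 349 to 412 CPM in the injured and 383 to 470.0 CPM in the naive group and had 1 faller of 14 (0 without injured 4, naive 1 or naive 2). Mural cell markers summed to 251 to 285 CPM in the injured and 293 to 332 CPM in the naive group and had 2 fallers of 12 (1 without injured 2, injured 3, naive 3 or naive 4), among them Pdgfrb, the receptor of pericytes, at −0.61 (SE 0.14). Of 16 fibroblast markers, 1 rose (2 without injured 2 and 3 without naive 3) and 3 fell. Comp, a matrix protein of cartilage and tendon, had 5.06, 4.04, 10.1 and 6.02 CPM in the injured libraries, against 19.1, 17.6, 16.9 and 17.5 CPM in the naive libraries. The log2 fold change was −1.499 (SE 0.198). The tendon factor Scx fell (log2 fold change −0.83, SE 0.17), and the lipocalin Apod rose by 0.76 (SE 0.196). No injured library reached the naive level of Comp. Of 10 T, B and NK cell markers tested by edgeR, 0 passed the threshold, against 1 at an unadjusted p under 0.05 and 1 by DESeq2, and those that fell by edgeR were 1 without injured 4. Of 26 markers of dividing cells, Mcm6, of the replication helicase, rose by 0.58 (SE 0.14) (2 without injured 3 or naive 4 rose) and 4 fell (1 without injured 1, injured 2 or naive 4 and 2 without injured 3 or naive 3). The shares were 3.85% higher and 15.4% lower, beside 14.4% and 13.5% of all genes.

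Of 38 integrin and laminin genes, 4 rose and 4 fell (10.5% each, beside 14.4% and 13.5% of all genes). The list had 3 higher and 8 lower when scaled by pan-neuronal counts and 5 higher and 3 lower by pan-neuronal genes without Tubb3. Its summed level was 2350 to 2580 CPM in the injured and 1210 to 1340 CPM in the naive group. Itga7, a laminin-binding integrin chain of growing axons, had 780.4, 859, 839.6 and 777 CPM in the injured libraries, against 186, 175, 159 and 157 CPM in the naive libraries. It rose by 2.27 (SE 0.095, adjusted p = 1.32e-14). Its partner Itgb1 had 959.5, 1120, 1032 and 1059 CPM in the injured libraries, against 516, 536, 516 and 501 CPM in the naive libraries. It rose by 1.01 (SE 0.051). In both genes the libraries of a group lay close together and the groups did not overlap. Lamb3, a laminin chain, had 152, 170, 140 and 212 reads in the injured libraries, against 10, 20, 15 and 10 reads in the naive libraries. It rose by 3.67 (SE 0.51), and Itgb7, an integrin of leukocytes, fell (log2 fold change −1.54, SE 0.33). Of 42 collagen genes, 4 rose (9.52%), among them Col5a3 by 1.18 (SE 0.14) and Col6a5 by 2.64 (SE 0.32), and 3 fell (7.14%). Both collagen shares lay below those of all genes. Scaled by pan-neuronal counts, 3 collagen genes were higher and 4 lower. Of 20 complement genes, 6 rose and 2 fell, with 1 without injured 3, injured 4, naive 1 or naive 3 for those that fell. C4b rose by 1.104 (SE 0.13), and of the membrane inhibitors of the cascade Cd59a rose by 0.63 (SE 0.053) and Cd55 fell (log2 fold change −0.797, SE 0.090).

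The falls reached genes outside these lists. By p, the leading ones beside Rph3a and Kcna2 were Gm765, at −0.93 (SE 0.062), the membrane protein gene Tmem255a, at −0.86 (SE 0.061), and Dkk3, a secreted dickkopf family protein, at −0.85 (SE 0.061). Gm765 had 151, 148, 146 and 159 CPM in the injured libraries, against 277, 322, 276 and 277 CPM in the naive libraries. Dkk3 had 129, 114, 115 and 133 CPM in the injured libraries, against 234, 228, 210.0 and 211 CPM in the naive libraries. In each all injured libraries lay below all naive ones. Among the 12 largest falls under the same limits of level and overlap, Tpd52l1 fell (log2 fold change −1.46, SE 0.15), Lin7b, a scaffold protein of synapses (−1.299, SE 0.17) with 24.4% of its exon length shared with another gene, Glb1l2 (−1.16, SE 0.13) and Igsf21, a synaptic adhesion protein (−1.14, SE 0.11). Among falls that were large in mean CPM, Phf24 had 1068 ± 82.5 CPM in injured and 1733 ± 89.4 CPM in naive libraries, a log2 fold change of −0.698. The mitochondrial ribosomal RNA mt-Rnr2 had 10654, 10574, 10413 and 7751 CPM in the injured libraries, against 12247, 12140, 14433 and 11500 CPM in the naive libraries, a log2 fold change of −0.35. Injured library 4 was the lowest and naive library 3 the highest, and the call was lost without injured 4 or naive 3 (adjusted p = 0.126 to 0.133). It was also lost by DESeq2 (adjusted p = 0.0876) and when scaled by the pan-neuronal genes without Tubb3.

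The 24 h libraries show how the response differed between the times. Both responses were fitted in 1 model from separate libraries, and their difference, 72 h minus 24 h, was tested directly. It was more positive for 548 genes (2.86%) and more negative for 659 (3.44%). Several growth and peptide genes had larger rises at 72 h. Gal was at 4.14 at 72 h and 2.12 at 24 h, a difference of 2.02 (SE 0.26, adjusted p = 3.61e-05), Tubb6 differed by 1.49 (SE 0.21, adjusted p = 9.84e-05), Stmn4 by 1.299 and Tubb3, at 0.068 at 24 h, by 0.55. Others had a response near or below 0 at 24 h. Penk was at 1.61 at 72 h and −0.29 at 24 h, a difference of 1.898 (SE 0.35, adjusted p = 0.00145). Gabrb1 was at 1.26 at 72 h and −0.021 at 24 h, a difference of 1.29 (SE 0.24, adjusted p = 0.00135). Pde1a, a calmodulin-dependent phosphodiesterase, rose by 2.74 (SE 0.13) at 72 h and differed by 2.34 (SE 0.18, adjusted p = 1.75e-08). Ppef1, a calcium-binding phosphatase, rose by 1.23 (SE 0.068) and differed by 1.19. The macrophage genes C1qa and Mrc1 were at 1.99 and 1.22 at 72 h and 0.26 and 0.073 at 24 h, with differences of 1.73 and 1.15.

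Many channel and synaptic genes had a more negative response at 72 h. In the voltage-gated potassium channel list 14 of 47 genes had a more negative response at 72 h and 0 a more positive one. In the sodium channel list the counts were 6 and 1 of 14, and among synaptic genes 16 and 0 of 48. Trpa1 was at −0.699 at 72 h and 0.12 at 24 h, a difference of −0.82 (SE 0.13, adjusted p = 0.000271). Etv1 differed by −0.77, Scn11a by −0.58 and Snap25 by −0.36. Some rises were smaller at 72 h than at 24 h. Scai, a regulator of transcription, was at 0.16 at 72 h and 1.02 at 24 h, a difference of −0.86 (SE 0.091, adjusted p = 2.2e-06). Stat2, of the interferon pathway, was at 0.090 at 72 h and 0.82 at 24 h, a difference of −0.73. Ugdh was at 0.68 and 1.55 in the same order, a difference of −0.87, and Adcyap1 at 1.33 and 2.01, a difference of −0.68. These counts move with the scaling: by the pan-neuronal genes without Tubb3, 1259 genes were more positive and 311 more negative at 72 h, and with Tubb3 315 and 792.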

How the data were processed

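Raw gene counts, as deposited by the authors, were used for 16 libraries and 48795 genes, 48349 with a symbol. Per the submitters' processing notes, bcl2fastq 2.17, STAR and HTSeq were used, with GRCm38 and mm10. Strand setting, multimapping, annotation release and read layout are not given in the sources used here. Coordinates are those of GENCODE M21 (48435 genes matched), and promoters come from RefSeq on GRCm38.p6. A deposited table of repeat windows was not used here.

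All 16 libraries were fitted together with edgeR 4.0.16 in R 4.3.3, by its quasi-likelihood test with TMM scaling, filterByExpr (minimum count 10, total 15) and Benjamini-Hochberg adjustment at 0.05. SE is the log2 fold change over the square root of F, and log2 CPM used a prior count of 2. The same procedure was tested on simulated data. Alternatives were other scalings and filters, DESeq2 1.42.0, the 72 h libraries alone, a replicate block and leaving out each library.

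The gene lists (66, with 1898 genes, of which 1766 were tested) and the comparison were chosen with earlier results of these data known. Genes were named by rule: the largest rises and falls in fold or CPM without overlap, the falls with the smallest p, up to 3 genes per list and direction, any member of the receptor, sensory neuron and non-neuronal lists, and the genes whose responses at the times differed with the smallest p. Some that meet the rule are not reported here.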

Additional observations from a re-analysis of the deposited data

Results flagged for a closer look

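Within each group of 4 libraries at 72 h, the highest or lowest value of a named gene or marker sum was marked where its gap to the nearest library took up more of the group's range than Dixon's 95% critical value for 4 samples allows. Of 412 such groups, 29 (7.04%) were marked, and chance marks about 1 in 20. Each value below is given as CPM of the library, CPM of the nearest library, and the gap as a share of the range. Among injured libraries, the highest value stood apart for Cd59a in library 2 (204 against 182 CPM, 0.937), Gabra5 in library 4 (26.8 against 21.6 CPM, 0.830) and Kcnh7 in library 4 (149 against 134 CPM, 0.874). The same held for Kcnt1 in library 1 (111 against 97.8 CPM, 0.929), Mcoln2 in library 2 (6.77 against 4.72 CPM, 0.842) and Pmp22 in library 4 (653 against 642 CPM, 0.931). It held too for Prdm12 in library 1 (75.1 against 62.9 CPM, 0.841), Robo2 in library 4 (359 against 323 CPM, 0.835) and Scn10a in library 1 (577 against 501 CPM, 0.866). It further held for Scn3a in library 4 (15 against 10.9 CPM, 0.912), Tubb3 in library 3 (5660 against 5300 CPM, 0.910) and Vegfa in library 1 (38.8 against 32.9 CPM, 0.882). Among injured libraries, the lowest value stood apart for Fos in library 2 (167 against 203 CPM, 0.934), Igsf21 in library 2 (7.4 against 10.9 CPM, 0.895) and Ndufb3 in library 1 (78 against 90.1 CPM, 0.928). The same held for Penk in library 2 (9.11 against 10.2 CPM, 0.984) and mt-Rnr2 in library 4 (7750 against 10400 CPM, 0.917). Among naive libraries, the highest value stood apart for Ano3 in library 2 (1110 against 998 CPM, 0.894), Bcl2 in library 2 (91.1 against 82.7 CPM, 0.912) and Car10 in library 2 (133 against 128 CPM, 0.883). The same held for Gm765 in library 2 (322 against 277 CPM, 0.974), Kcna2 in library 3 (351 against 334 CPM, 0.909) and Kcnh7 in library 2 (292 against 258 CPM, 0.856). It held too for Kcnq3 in library 3 (30.7 against 28.1 CPM, 0.908), Mcoln2 in library 4 (0.41 against 0.107 CPM, 0.891) and Rrp12 in library 1 (41.5 against 37.3 CPM, 0.878). It further held for Sesn2 in library 4 (6.73 against 5.08 CPM, 0.848) and T, B and NK cells as a sum in library 4 (48.1 against 35.8 CPM, 0.848). Among naive libraries, the lowest value stood apart for Sez6l in library 2 (5.8 against 7.98 CPM, 0.874).

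Among the named genes whose response differed between the times, those with a difference of at least 1 on the log2 scale, or among the smallest p for the difference, are listed. Each has its difference, 72 h minus 24 h, and in brackets the log2 fold changes at 72 h and at 24 h. The response was more positive at 72 h for Car3 by 4.14 (5.48 and 1.34), Kcnk16 by 3.83 (6.12 and 2.297), Crh by 3.79 (7.35 and 3.56) and Ecel1 by 3.09 (6.52 and 3.43). Then came Nts by 2.95 (4.81 and 1.86), Car1 by 2.89 (3.45 and 0.56), Acvr1c by 2.35 (5.26 and 2.91) and Pde1a by 2.34 (2.74 and 0.399). Next were P2ry14 by 2.08 (1.56 and −0.52), Cckar by 2.03 (1.75 and −0.28), Gal by 2.02 (4.14 and 2.12) and Sez6l by 1.93 (3.54 and 1.62). Then came Penk by 1.898 (1.61 and −0.29), C1qa by 1.73 (1.99 and 0.26), Gabrg1 by 1.63 (1.72 and 0.095) and Lmo7 by 1.56 (4.36 and 2.802). Next were Tubb6 by 1.49 (4.03 and 2.54), Aldh1l1 by 1.39 (1.896 and 0.51), Chrm3 by 1.35 (1.13 and −0.22) and Stmn4 by 1.299 (2.91 and 1.61). Then came Gabrb1 by 1.29 (1.26 and −0.021), Flnc by 1.28 (3.64 and 2.36), Ppef1 by 1.19 (1.23 and 0.037) and Mrc1 by 1.15 (1.22 and 0.073). Next were Gap43 by 1.14 (1.48 and 0.34), Col5a3 by 1.099 (1.18 and 0.079), Fst by 1.07 (4.99 and 3.92) and Cacna2d1 by 1.06 (1.67 and 0.61). Then came Star by 1.03 (4.78 and 3.75). The response was more negative at 72 h for Tpd52l1 by −1.02 (−1.46 and −0.44), Rph3a by −0.89 (−0.97 and −0.079), Ugdh by −0.87 (0.68 and 1.55) and Scai by −0.86 (0.16 and 1.02). Then came Stat2 by −0.73 (0.090 and 0.82). The fitted values of Crh and Kcnk16, which had few naive reads, depend on the prior count.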

How the results depend on the processing

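Scaled by pan-neuronal counts, 1634 genes were higher and 4192 lower at 72 h, 292 of them lower by at least 1, and 315 had a more positive response than at 24 h. Scaled by those genes without Tubb3, an alternative chosen after seeing the data, 1259 had a more positive and 311 a more negative response at 72 h. Leaving out each library in turn gave 2303 to 2593 genes higher and 2115 to 2386 lower, 608 to 654 higher and 110 to 214 lower by at least 1, and 385 to 495 more positive and 456 to 596 more negative differences. DESeq2 called 2893 higher and 2694 lower, the 72 h libraries alone 3062 and 3054, and no filter 2591 and 2748. No named gene that was called turned its direction under an alternative, and 14 lost the call under at least 1.

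Injured and naive libraries of the same number correlated in their deviations from the group means by 0.087, 0.093, 0.048 and 0.101 at 72 h. Pairs of unlike number ran from −0.109 to 0.077. Injured 1, 2 and 4 correlated best with their own number, and injured 3 with naive 4 (0.077). At 24 h every injured library correlated best with its own number. With the replicate block, 3012 genes were higher and 2942 lower, and 764 and 928 differences were more positive and more negative. A block of libraries 1 and 2 against 3 and 4, also chosen after seeing the data, gave 2892 and 2753. The replicate block changed no call of a named gene, but moved a count of calls by over 1.5 times in 13 of the 66 lists. Beside those given above, it gave 1 higher and 6 lower for complex I, 5 and 4 for the tricarboxylic acid cycle, 4 and 3 for interferon response genes, 7 and 8 for pan-neuronal genes, 4 and 2 for itch neurons, 2 and 0 for satellite glia, 3 and 3 for fibroblasts, 0 and 2 for endothelium and 0 and 2 for T, B and NK cells.

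Unknown strand and multimapping settings, no batch label and 4 libraries a group limit these values, and low naive counts limit the precision of the largest folds.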
